A study of Arabidopsis thaliana with 64 samples.

Results

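The light-harvesting antenna (LHC), LHC-like and Rubisco genes of Arabidopsis thaliana are described here as 35 loci of the 32833 that were counted. They were chosen by name, as nuclear loci of the antenna of both photosystems, of their relatives and of the Rubisco small subunit, with no measured value used in the rule. They comprise 6 LHCA loci of the photosystem I antenna, 9 loci of the LHCB1, LHCB2 and LHCB3 families, 6 of the minor photosystem II antenna, 9 LHC-like loci and 5 for Rubisco and its activase. All 35 passed the filter on low counts.

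Light-harvesting proteins hold most of a leaf's chlorophyll and pass excitation energy to the photosystems. LHCB1, LHCB2 and LHCB3 form the antenna trimers of photosystem II, LHCB4, LHCB5 and LHCB6 link those trimers to the core, and LHCA proteins form the belt of photosystem I. Their nuclear genes, like those of the Rubisco small subunit (RBCS), the smaller part of the enzyme that fixes carbon dioxide, are known to respond to light and to the circadian clock.

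The study profiled transcripts and protein-bound DNA around ELF3, a protein of the evening complex of the clock that the submitters describe as a thermosensor with a prion-like domain. RNA came from 38 libraries of pooled seedlings grown on plates for 10 days in short days, with 8 h of light and 16 h without, at 12 °C (3 libraries), 22 °C (15) or 27 °C (20). The sources used here do not give the time of day of the RNA harvest. Chromatin immunoprecipitation (ChIP) peak lists covered 25 samples of seedlings grown at 17 or 22 °C, some of them kept at 27 °C for 2 h from zeitgeber hour 8. Of these lists, 2 were INPUT, DNA with no antibody. The genotypes of the other 23 were ELF3pro::ELF3-BdPrD (4 lists), ELF3pro::ELF3-MYC elf3-1 (3), ELF3-ox (3), ELF3pro::BdELF3 (3) and, with 2 each, ELF3pro::ELF3-Q15, ELF3pro::ELF3-Q20, BdELF3-ox, StELF3-ox and the cross of ELF3pro::ELF3-MYC elf3-1 with ELF4-ox. Col-0 was their labelled cultivar. The antibody was against MYC for the lines named so, HA for ELF3-ox and Flag for the rest.

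Col-0, the wild type, had 1 library at 22 °C and 2 at 27 °C. The mutants elf3-1 and elf4-2 and the overexpressor ELF4-ox had 1 library at each of 22 and 27 °C. So did elf4-2 X ELF3-ox and elf3-1 X ELF4-ox, which combine a mutation with an overexpressor. ELF3-ox and StELF3-ox, with the potato protein, had 1 library at each of 12, 22 and 27 °C. BdELF3-ox, with the Brachypodium protein, had 1 at 12 °C, 1 at 22 °C and 3 at 27 °C. ELF3pro::BdELF3 puts that protein under the promoter of ELF3 and had 1 at 27 °C. ELF3pro::ELF3 insertion lines with a polyglutamine length of 0 (Q0 #2, Q0 #15), 7 (Q7 #6, Q7 #17) or 21 (Q21 #7, Q21 #23) gave the other 13. Each had 1 library at 22 °C and, except Q7 #17, 1 or 2 at 27 °C. The promoter of the lines named "-ox" and the background of the RNA lines with transgenes are not given in the labels of those libraries.

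Gene counts per library ran from 4381010 to 25649275. Of 33 groups of 1 line and temperature, 29 held 1 library, so all 38 shared 1 estimate of spread. Nothing in the labels says that libraries came from separate cultures, so p-values measure the spread between these samples, and in bulk seedlings fewer cells of a type and less RNA per cell cannot be told apart. Each library title opens with 1 of 4 numbers, treated as batches. The 3 libraries at 12 °C share 1 of these numbers, which holds 4 libraries at 27 °C and none at 22 °C. The 12 °C libraries are all of overexpressors. ELF4 in the 4 elf4-2 libraries stood at 29.4 to 38.1 CPM (normalised counts scaled to a common library total), below the 59.8 to 67.4 of Col-0. ELF3 in the 4 libraries with elf3-1 stood at 17.5 to 26.6 CPM against 17.2 to 29.9 in Col-0, and in ELF3-ox at 9.41 to 37.2 CPM. A 3′ tag need not see a point change or a transgene with another 3′ end, so the ELF3 values check neither label. In ELF3pro::BdELF3 27 °C replicate 1 and BdELF3-ox 27 °C replicate 2, 10 root markers summed to 96.6 and 68.9 CPM, against 1121 to 2904 CPM in the other 18 libraries at 27 °C. PYK10 made up most of the sum, at 94.8 and 67.8 CPM in these libraries and a median of 1374 CPM over all at 27 °C. COBL9 and EXPA18, of root hairs, were at 0 in both libraries. The 35 loci summed to 58875 and 65047 CPM there, against 25527 to 71410 CPM in the other 18. The part of root tissue in any result was not tested, and the values without both libraries are given where they move a count by over 1.5 times.

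The 35 loci together made up a large share of all transcripts. They summed to 87832, 113957 and 115351 CPM at 12 °C. At 22 °C the sum had a lowest value of 39708, a median of 53140 and a highest of 70476 CPM, and at 27 °C of 25527, 35093 and 71410 CPM. Every library at 12 °C lay above all others, and the ranges at 22 and 27 °C overlapped.

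**Figure D1:**
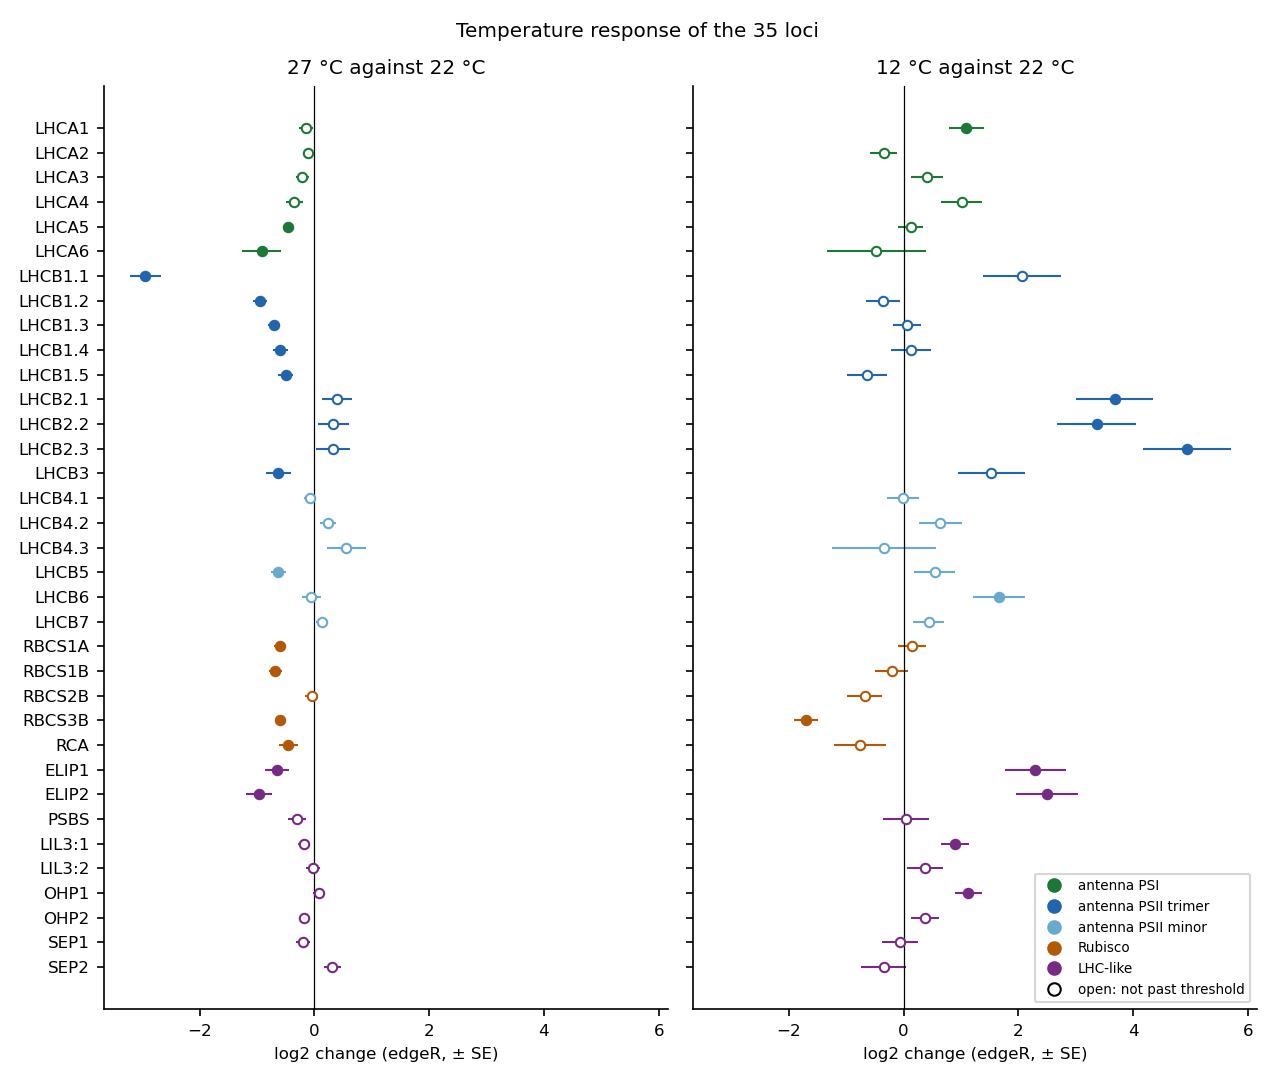
The log2 change of each of the 35 loci in the 38-library edgeR fit, with its standard error, for 27 °C against 22 °C on the left and 12 °C against 22 °C on the right; filled points passed the threshold of an adjusted p of 0.05. All 15 filled points on the left lie below 0, with LHCB1.1 farthest at -2.95, and the 3 LHCB2 copies lie farthest to the right at 12 °C.

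At 27 °C against 22 °C, 15 of the 35 loci fell and 0 rose. Among all 19587 loci tested, 16.7% fell and 17.7% rose by the same test, 34.3% in all. The median log2 change of the 35 was -0.21, beside 0.01 over all loci. The fall was spread unevenly over the roles: 6 of 9 LHCB1 to LHCB3 loci, 4 of 5 Rubisco loci, 2 of 6 LHCA loci, 2 of 9 LHC-like loci and 1 of 6 minor antenna loci were called lower. The fit had terms for line, temperature and title number, and used edgeR's quasi-likelihood test with Benjamini-Hochberg adjustment over all loci.

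LHCB1.1 (AT1G29920), 1 of 5 copies that encode the most abundant trimer protein, fell the most. It read 1249 to 12228 CPM at 22 °C with a median of 5312, and 307 to 2603 CPM at 27 °C with a median of 654. Of the 20 libraries at 27 °C, 16 lay below every library at 22 °C. The log2 change was -2.95 ± 0.27 (SE), a 7.71-fold fall, with an adjusted p of 1.2e-07, and the level was lower at 27 °C in 14 of 14 lines that had both temperatures.

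The other LHCB1 copies fell by far less. LHCB1.2 (AT1G29910) had medians of 4740 CPM at 22 °C and 2689 CPM at 27 °C, a log2 change of -0.95 ± 0.12 with an adjusted p of 3.4e-06. It was lower in 14 of 14 lines, but its ranges overlapped, with 4 of 20 libraries below all at 22 °C. LHCB1.3 (AT1G29930) had medians of 9730 and 6236 CPM, a log2 change of -0.71 ± 0.09, and LHCB1.5 (AT2G34420) of 5239 and 3709 CPM, a change of -0.50 ± 0.13. LHCB1.4 (AT2G34430) had medians of 2081 and 1540 CPM and a log2 change of -0.59 ± 0.13, while its mean was higher at 27 °C, 3145 against 2524 CPM, with BdELF3-ox 27 °C replicate 3 alone at 17200 CPM. The 5 copies summed to medians of 30186 and 14386 CPM, a log2 change of -0.94 ± 0.11. The copies are near-identical, and reads that match more than 1 copy may have been lost or misplaced. From 2.64 to 35.1% of reads per library were not uniquely aligned, so neither single copies nor their sum are free of this. LHCB1.1, LHCB1.2 and LHCB1.3 lie next to each other on chromosome 1, and LHCB1.4 and LHCB1.5 on chromosome 2.

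**Figure D2:**
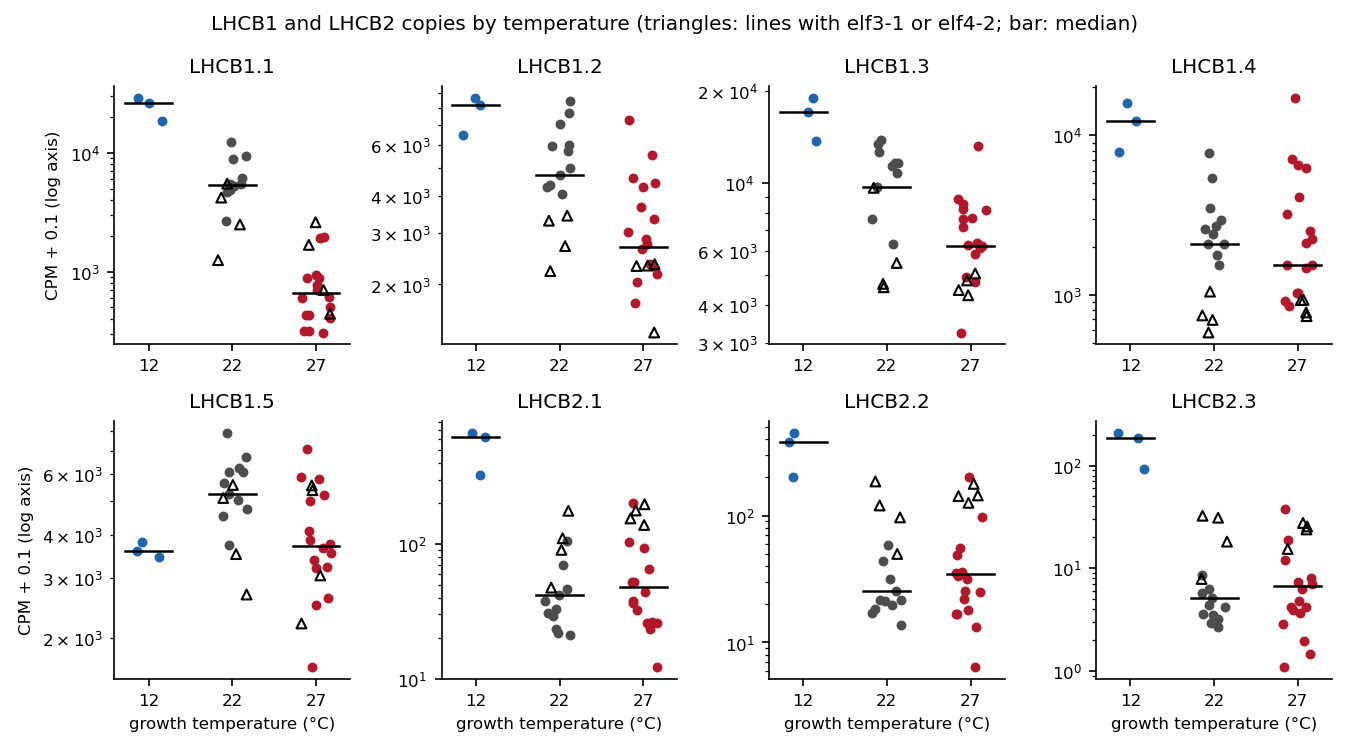
Level of each LHCB1 and LHCB2 copy in every library, as CPM on a log axis, by growth temperature; circles are libraries without elf3-1 or elf4-2, triangles those with either, and bars are medians. LHCB1.1 drops from a median of 5312 CPM at 22 °C to 654 CPM at 27 °C, and the triangles lie low in LHCB1.4 and high in LHCB2.3.

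The make-up of the LHCB1 pool moved with temperature. LHCB1.1 took 37.0, 38.4 and 38.6% of LHCB1 counts at 12 °C. It took 6.92 to 28.7% at 22 °C with a median of 17.95%, and 1.75 to 16.3% at 27 °C with a median of 3.57%. The share was lower at 27 °C in 14 of 14 lines, and the shares of LHCB1.3, LHCB1.4 and LHCB1.5 were each higher in 13 of 14. The share of LHCB1.2 was lower in 7 lines and higher in 7. These shares were looked at after the values of the copies had been seen, so they carry no test. At 27 °C the highest shares of LHCB1.1 were in elf3-1, at 12.3%, and in elf3-1 X ELF4-ox, at 16.3%, against 1.75 to 7.55% in the other 18 libraries. The test of whether LHCB1.1 responded to 27 °C differently in those lines, with the elf4-2 lines among the rest, gave a log2 interaction of 1.84 ± 0.80. Its adjusted p was 1.0, so no difference was shown. On the log2(CPM + 1) scale LHCB1.1 changed from 22 to 27 °C by -1.32 in elf3-1 and -1.08 in elf3-1 X ELF4-ox. The change was -1.83 in elf4-2 and -1.50 in elf4-2 X ELF3-ox, against -4.81 to -2.73 in the other lines with both temperatures.

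**Figure D3:**
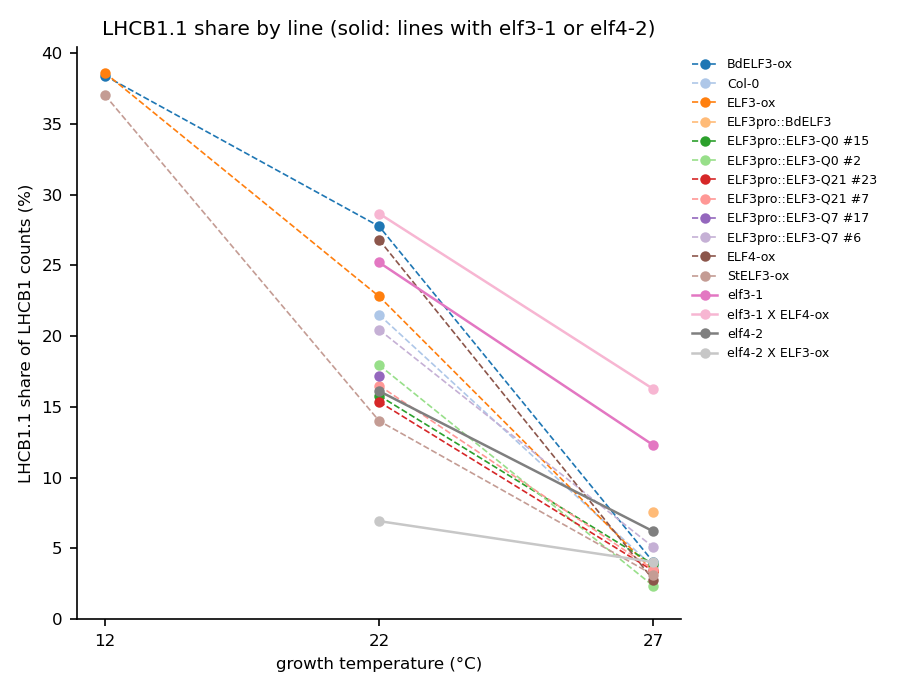
Share of LHCB1 counts that LHCB1.1 took, in percent, by growth temperature, with 1 line per genotype and the mean where a genotype had several libraries at a temperature. Every line that joins 22 and 27 °C falls, and elf3-1 and elf3-1 X ELF4-ox end highest, at 12.3 and 16.3%.

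The LHCB2 copies did not share this fall. LHCB2 proteins sit in the same trimers and are the ones whose phosphorylation moves trimers between the photosystems. LHCB2.1 (AT2G05100) had medians of 41.8 CPM at 22 °C and 47.6 CPM at 27 °C, LHCB2.2 (AT2G05070) of 25.5 and 34.2 CPM, and LHCB2.3 (AT3G27690) of 5.05 and 6.60 CPM. Their log2 changes were 0.39 ± 0.26, 0.33 ± 0.27 and 0.33 ± 0.30, and none passed the threshold. Their sum gave 0.35 ± 0.26 and was higher at 27 °C in 10 of 14 lines. The lines went in both directions: LHCB2.1 was lower at 27 °C in 4 of 14 lines, LHCB2.2 in 6 and LHCB2.3 in 8. On the log2(CPM + 1) scale all copies fell in ELF3-ox, by 1.34 to 1.96, and all rose in ELF3pro::ELF3-Q7 #6, by 1.31 to 1.61. LHCB2 counts per 100 LHCB1 counts were higher at 27 °C in 13 of 14 lines.

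LHCB3 (AT5G54270), the third trimer protein, had medians of 800 CPM at 22 °C and 452 CPM at 27 °C. Its log2 change was -0.63 ± 0.22 with an adjusted p of 0.030, and leaving out any 1 of 9 libraries ended the call. LHCB5 (AT4G10340), which encodes a minor antenna protein, had medians of 896 and 600 CPM, with 16 of 20 libraries at 27 °C below all at 22 °C. Its change was -0.63 ± 0.14. The other minor antenna loci did not pass: LHCB4.1, LHCB4.2, LHCB4.3, LHCB6 and LHCB7 had log2 changes from -0.07 to 0.55.

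Among the photosystem I antenna genes, LHCA5 and LHCA6, whose proteins are minor parts that help to tether the NADH dehydrogenase-like complex, were called lower. LHCA5 had medians of 92.5 CPM at 22 °C and 64.2 CPM at 27 °C, and 15 of 20 libraries at 27 °C lay below all at 22 °C. Its log2 change was -0.46 ± 0.09 with an adjusted p of 0.00036. LHCA6 had medians of 34.9 and 25.0 CPM and a change of -0.92 ± 0.34, and leaving out any 1 of 23 libraries ended the call. LHCA1 to LHCA4, the main belt proteins, had changes from -0.35 to -0.11, and none passed.

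Rubisco loci fell, except 1. RBCS1A (AT1G67090), a small subunit gene, read 5509 to 12610 CPM at 22 °C with a median of 7059, and 3405 to 9373 CPM at 27 °C with a median of 5268. Its log2 change was -0.60 ± 0.09, and it was lower in 14 of 14 lines. RBCS3B (AT5G38410) changed by -0.61 ± 0.08, also in 14 of 14 lines, and RBCS1B by -0.68 ± 0.11. RBCS2B, next to both on chromosome 5, changed by -0.05 ± 0.11 and did not pass. RCA, the activase that frees Rubisco of bound sugars, changed by -0.45 ± 0.17, and leaving out any 1 of 23 libraries ended that call. The sum of RBCS1B, RBCS2B and RBCS3B changed by -0.51 ± 0.08.

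Of the LHC-like loci, ELIP1 and ELIP2, whose proteins bind free pigment in strong light, fell from low levels. ELIP1 had medians of 0.751 CPM at 22 °C and 0.411 CPM at 27 °C, and ELIP2 of 0.982 and 0.462 CPM. Their log2 changes were -0.65 ± 0.20 and -0.96 ± 0.23. PSBS (AT1G44575), the sensor protein of energy dissipation, changed by -0.31 ± 0.15, and LIL3:1, LIL3:2, OHP1, OHP2, SEP1 and SEP2 by -0.20 to 0.31, none past the threshold.

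An exact sign-flip permutation test over the 14 lines, two-sided and adjusted over all loci, called 17 of the 35 loci lower and 0 higher. It called 18.5% of all loci lower and 18.7% higher. It had no term for title number, and only 7 of the 14 lines had both temperatures under 1 number. Its 27 °C mean for BdELF3-ox took in a library low in root markers. LHCB1.4 and LHCA6 were not called by it, with adjusted p of 0.062 and 0.13. It called lower 4 loci that the 38-library fit did not, LHCA3 (adjusted p of 0.030), PSBS (0.038), LIL3:1 (0.016) and OHP2 (0.014). In an edgeR fit of the 7 lines with both temperatures under 1 title number 7 of the 35 loci were called, beside 7.76% of all loci, and in them LHCB1.1, LHCB1.2, RBCS1A and RBCS3B were lower at 27 °C in 7 of 7. In Col-0 alone edgeR called LHCB1.1 and 1.22% of all loci, with 1 library at 22 °C that was assumed to vary like the 2 at 27 °C.

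The lists of genes around the antenna are to be read beside the 16.7% of all loci that fell at 27 °C and the 17.7% that rose. Of 12 photosystem I core genes, 10 fell and 1 rose, with PSAH1 at -0.73 and PSAL at -0.71 on the log2 scale. Of 10 photosystem II core genes, 7 fell, with PSBTN at -0.87 and PSBW at -0.50. Of 18 chlorophyll synthesis genes, 7 fell and 2 rose: CHLI2, a magnesium chelatase subunit, changed by -0.45, and HEMA1, which starts the pathway, by 0.65. Of 8 chlorophyll breakdown genes, 5 rose and 0 fell, with PPH at 0.52 and SGR2 at 0.83. Of 7 genes for delivery and phosphorylation of antenna proteins, 1 rose: CPSRP43, the chaperone that carries antenna proteins to the thylakoid, by 0.66 ± 0.10, with 20 of 20 libraries at 27 °C above every library at 22 °C. Of 13 Calvin cycle genes 2 fell and 1 rose, with TKL1 at -0.31 and CP12-1 at 0.41. Of 7 regulators of antenna genes 1 was called higher and 1 lower, and GLK2 rose by 0.55 and CGA1 changed by -0.33. The medians of GLK1 went the other way from GLK2, from 8.38 CPM at 22 °C to 5.58 CPM at 27 °C. The counts for the Calvin cycle, for delivery and phosphorylation and for the regulators lie near or below the shares of all loci. Of 9 clock genes tested 3 rose, with LUX at 0.89 and TOC1 at 0.49. Of 9 root markers tested 2 fell, COBL9 by 1.24 and CASP2 by 0.47. Of 4 seed markers tested 2 fell, CRU3 at -2.27 and SESA3 at -2.86, with 7 such markers summing to 0.574 to 161 CPM at 22 °C and 0 to 26.99 CPM at 27 °C. The part of seed RNA in the result was not tested.

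At 12 °C against 22 °C, 9 of the 35 loci rose and 1 fell. Among all loci tested, 2.63% rose and 3.45% fell, 6.09% in all. The median change of the 35 was 0.37, beside -0.02 over all loci. The fit sets the 12 °C libraries against the 22 °C ones through libraries at 27 °C with the same title number, and temperature cannot be told apart from that number without them.

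The LHCB2 copies rose the most. Their sum read 620 CPM in StELF3-ox, 1212 CPM in ELF3-ox and 1306 CPM in BdELF3-ox at 12 °C, against 38.1 to 394 CPM at 22 °C with a median of 71.4. All 3 lay above every library at 22 and 27 °C. The log2 change of the sum was 3.67 ± 0.68 with an adjusted p of 0.0032. LHCB2.1 changed by 3.68 ± 0.67, LHCB2.2 by 3.37 ± 0.69 and LHCB2.3 by 4.95 ± 0.77. Without ELF3-ox 22 °C replicate 1 the changes of the sum, LHCB2.1 and LHCB2.2 were 4.32, 4.37 and 3.96, each over 1.5 times larger as a fold. Within the same 3 lines the 12 °C library of the sum was higher than the 22 °C one by 2.83 to 3.96 on the log2(CPM + 1) scale. Under the shared title number, BdELF3-ox read 1306 CPM at 12 °C and 108 CPM at 27 °C.

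LHCB1.1 read 18542 CPM in StELF3-ox, 26318 CPM in ELF3-ox and 29111 CPM in BdELF3-ox at 12 °C, above all 35 other libraries. Its fitted change of 2.06 ± 0.68 had an adjusted p of 0.073 and did not pass. Under the shared title number it read 601 to 877 CPM in the 4 libraries at 27 °C. The LHCB1 sum, 50050 to 75795 CPM, also lay above all libraries at 22 °C, and its fitted change was 0.32 ± 0.28. LHCB1.5 read 3444 to 3804 CPM in the cold against a median of 5239 CPM at 22 °C, with a change of -0.64 ± 0.34 that did not pass.

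Of the other antenna genes, LHCB6 (AT1G15820) read 4556, 4892 and 5789 CPM at 12 °C, above the 649 to 2361 CPM at 22 °C, and rose by 1.66 ± 0.45. LHCA1 (AT3G54890) read 3549 to 4139 CPM at 12 °C against 731 to 2883 CPM at 22 °C and rose by 1.09 ± 0.30. LHCA4, LHCB3 and LHCB5 also lay above all 15 libraries at 22 °C in 3 of 3 libraries, with changes of 1.01, 1.53 and 0.54 that did not pass. Of the LHC-like genes, OHP1, a small single-helix protein needed to build photosystem II, rose by 1.13 ± 0.24. LIL3:1, which holds enzymes of chlorophyll synthesis, rose by 0.89 ± 0.24, ELIP2 by 2.5 ± 0.53 and ELIP1 by 2.3 ± 0.54. ELIP1 read 0.676 to 3.05 CPM in the cold and 0.401 to 3.36 CPM at 22 °C, so its ranges overlapped.

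RBCS3B was the member that fell in the cold. It read 1095, 1478 and 1730 CPM, below the 2515 to 6793 CPM at 22 °C in 3 of 3 libraries, and changed by -1.71 ± 0.21 with an adjusted p of 0.00014. It also lay below the 2810 to 4235 CPM of the 4 libraries at 27 °C under the same title number. RBCS1A read 9267 to 15444 CPM in the cold, overlapping the 22 °C range, with a change of 0.15 ± 0.24. Within the same 3 lines, across title numbers, it was higher at 12 °C than at 22 °C by 0.75 to 1.13 on the log2(CPM + 1) scale. RBCS1B was higher there by 0.80 to 1.16. Leaving out ELF3-ox 12 °C replicate 1 left 3 of the 10 calls, LHCB2.1, LHCB2.3 and RBCS3B, and the fit without the title number called 16, beside 27.9% of all loci.

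Around the antenna, beside 2.63% of all loci that rose and 3.45% that fell, 5 of 18 chlorophyll synthesis genes rose at 12 °C and 0 fell, with CHLI1 at 0.96 and CHLI2 at 1.09. Of 7 delivery and phosphorylation genes 2 rose, STN7, the kinase that phosphorylates LHCB1 and LHCB2, by 1.27 and CPSRP54 by 0.66. Of 12 photosystem I core genes 2 rose and 1 fell, with PSAD1 at 1.17 and PSAD2 at 1.70. GUN1 rose by 0.63 among 7 regulators and PRR7 by 2.22 among 9 clock genes tested. For the photosystem II core, the Calvin cycle, chlorophyll breakdown and the 9 root markers tested, edgeR called 0. Of 4 seed markers tested 1 fell, CRU3 at -5.84 on the log2 scale.

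In lines with elf3-1, LHCB2.3 and LHCB4.2 stood higher and LHCB1.4 lower. In elf3-1 against Col-0, 2 of 35 loci rose and 1 fell, where 0.403% of all loci rose and 0.296% fell, 0.699% in all. LHCB2.3 read 31.0 CPM in elf3-1 at 22 °C and 25.4 CPM at 27 °C, against 3.13 CPM at 22 °C and 4.08 and 4.09 CPM at 27 °C in Col-0. It rose by 3.20 ± 0.74 with an adjusted p of 0.045. LHCB4.2 (AT3G08940), a copy of the minor antenna protein CP29, read 2024 and 1555 CPM in elf3-1 against 531 to 797 CPM in Col-0 and rose by 1.55 ± 0.36. LHCB1.4 read 579 and 774 CPM in elf3-1 against 1467 to 4077 CPM in Col-0 and fell by 1.82 on the log2 scale, with an SE of 0.37. Neither gene's ranges overlapped between the genotypes. LHCB2.1 and LHCB2.2 changed by 2.09 ± 0.64 and 2.62 ± 0.67, with adjusted p of 0.13 and 0.068. The LHCB2 copies can share reads. Their sum read 261 CPM at 22 °C and 345 CPM at 27 °C in elf3-1, against 47.7 to 66.8 CPM in Col-0. The calls rest on few libraries: leaving out any 1 of the 5 left 0 or 1 of the 3. At 27 °C elf3-1 and Col-0 share no title number, so there line and number were set apart only through other libraries. DESeq2 called 5, beside 1.7% of all loci, and the fit without the libraries low in root markers called 6, beside 2.8%.

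In elf3-1 X ELF4-ox against ELF4-ox, 4 loci rose and 1 fell, where 0.449% of all loci rose and 0.235% fell, 0.684% in all. LHCB2.1 read 176 CPM at 22 °C and 197 CPM at 27 °C in the cross, against 23.1 and 12.0 CPM in ELF4-ox, and rose by 3.39 ± 0.73. LHCB2.2 rose by 3.98 ± 0.77, and LHCB2.3 by 3.93 ± 0.84. The LHCB2 sum, over copies that can share reads, rose by 3.68. LHCB4.2 read 1766 and 2031 CPM against 453 and 345 CPM and rose by 2.24 ± 0.40, with an adjusted p of 0.0060. LHCB1.4 read 741 and 925 CPM against 3510 and 2120 CPM and changed by -1.73 ± 0.36. Leaving out any 1 of the 4 libraries (either ELF4-ox or either cross library) left 0 or 1 of the 5 calls. This comparison and that of elf3-1 with Col-0 share no library of the compared lines, but they share 1 fit.

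In elf4-2 X ELF3-ox against ELF3-ox, LHCB1.4 fell and 0 loci rose, where 0.0153% of all loci fell and 0.0255% rose, 0.0408% in all. LHCB1.4 read 1046 CPM at 22 °C and 927 CPM at 27 °C in the cross, against 5432 and 2501 CPM in ELF3-ox, and 12369 CPM in ELF3-ox at 12 °C. The change was -2.09 ± 0.36 with an adjusted p of 0.033. The call ended without ELF3-ox at 22 °C, without ELF3-ox at 12 °C, without either cross library, or without the title number in the fit.

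In elf4-2 against Col-0, edgeR called 0 of the 35 loci and 0.0817% of all loci (0.0306% higher, 0.0511% lower), 8 of the 35 had an unadjusted p under 0.05, DESeq2 called 1, beside 0.225% of all loci, and edgeR without both libraries low in root markers called 2, beside 0.297%. LHCB4.2 read 1503 CPM at 22 °C and 1675 CPM at 27 °C in elf4-2, above the 531 to 797 CPM of Col-0, with a change of 1.58 ± 0.43 and an adjusted p of 0.35. LHCB1.4 read 695 and 734 CPM, below Col-0, with a change of -1.82 ± 0.42 and an adjusted p of 0.14. elf4-2 and Col-0 share no title number, so line and number were set apart only through other lines.

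**Figure D4:**
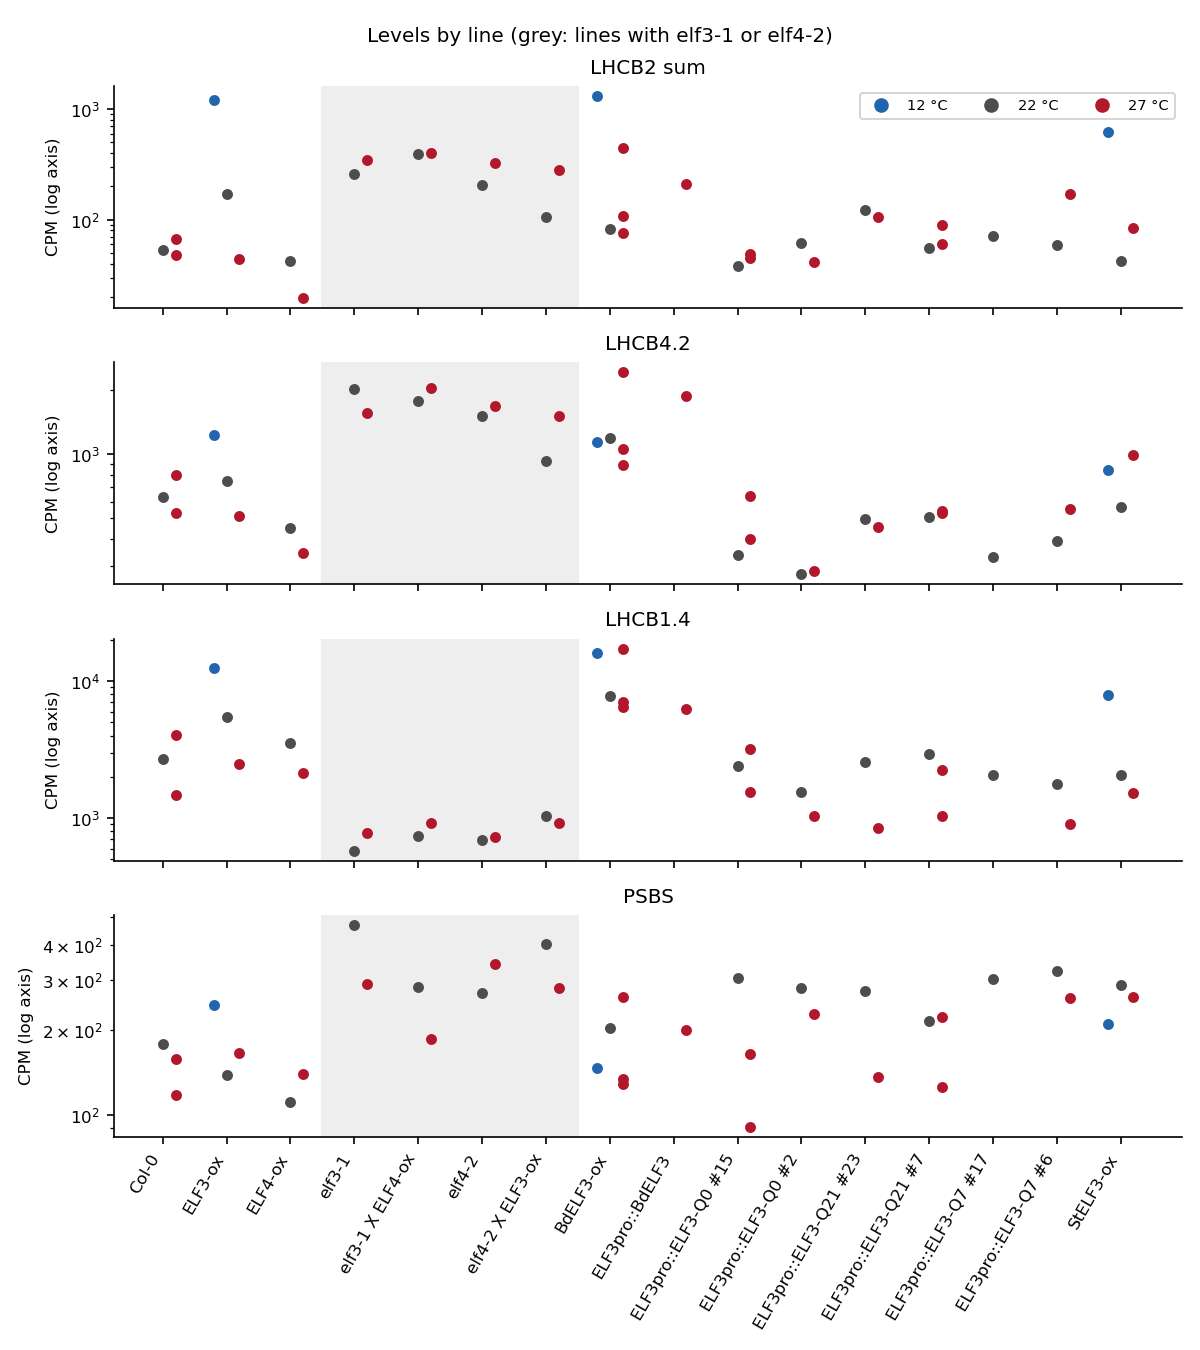
Level of the LHCB2 sum, LHCB4.2, LHCB1.4 and PSBS in every library, as CPM on a log axis, by line, coloured by growth temperature; grey marks the 4 lines with elf3-1 or elf4-2. In the grey band LHCB4.2 stands at 927 to 2031 CPM and LHCB1.4 at 579 to 1046 CPM, and the 12 °C libraries lie highest for LHCB2.

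The 4 lines that carry elf3-1 or elf4-2 were then set together against Col-0, ELF3-ox and ELF4-ox, a contrast chosen after these values had been seen and so no independent test. It called 6 of the 35 loci higher and 2 lower, where 1.36% of all loci were higher and 1.31% lower, 2.67% in all. The higher ones were LHCB2.1 at 1.87 ± 0.40, LHCB2.2 at 2.51 ± 0.42, LHCB2.3 at 2.84 ± 0.47, LHCB4.2 at 1.53 ± 0.23, PSBS at 1.06 ± 0.24 and RBCS2B at 0.68 ± 0.18. The lower ones were LHCB1.4 at -1.87 ± 0.22 and LHCB1.2 at -0.82 ± 0.18. The LHCB1 copies can share reads, as can the LHCB2 copies, so their calls are not independent. Leaving out any 1 of 13 libraries ended the call of RBCS2B, and any 1 of 5 that of PSBS. Without elf3-1 22 °C replicate 1 it called 4, as LHCB2.1 and LHCB1.2 were lost too. LHCB1.1, LHCB1.3, LHCB1.5, LHCB3 and the 6 LHCA loci did not pass.

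The 8 libraries of these lines at 22 and 27 °C can be set beside the 7 of Col-0, ELF3-ox and ELF4-ox at those temperatures. LHCB1.4 had a lowest value of 579, a median of 758 and a highest of 1046 CPM in the 8, against 1467, 2702 and 5432 CPM in the 7. LHCB4.2 had 927, 1615 and 2031 CPM against 345, 531 and 797 CPM. PSBS had 186, 287 and 468 CPM against 111, 140 and 179 CPM. For these 3 genes and for LHCB2.3, all 8 lay on 1 side of the 7, the libraries on which they had been called. Against all 27 other libraries at 22 and 27 °C the split was weaker. Of the 8, 5 lay below all 27 for LHCB1.4. Above all 27 lay 3 for PSBS and 0 for LHCB4.2 and LHCB2.3. Of the 27, 14 lay above all 7 for PSBS, 6 for LHCB4.2 and 8 for LHCB2.3, and 4 lay below for LHCB1.4. The LHCB2 sum had 105, 301 and 402 CPM against 19.7, 47.7 and 170 CPM, with 7 of the 8 above all 7. LHCB2 made up 0.581 to 2.85 counts per 100 LHCB1 counts in the 8, with a median of 2.28. In the 27 others at 22 and 27 °C it made up 0.122 to 1.60, with a median of 0.273, so the ranges overlapped. At 12 °C, in other lines, it made up 1.24 to 1.78. In the same 8 libraries the clock gene LUX stood at 90.6 to 118 CPM, against 7.98 to 80.3 CPM in the 27 others at 22 and 27 °C. Root markers summed to 1409 to 2135 CPM in the 8 and to 68.9 to 2904 CPM in the 27 others. BdELF3-ox 27 °C replicate 2, low in root markers, also had LHCB4.2 at 2406 CPM and the LHCB2 sum at 441 CPM.

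The remaining comparisons gave no call among the 35 loci by edgeR or DESeq2 with the filter on low counts. For ELF3-ox against Col-0 edgeR called 0.0306% of all loci and for ELF4-ox against Col-0 0.00511%, and 1 and 0 of the 35 had an unadjusted p under 0.05. For BdELF3-ox and for StELF3-ox against ELF3-ox edgeR called 0% of all loci, and 8 and 0 of the 35 had an unadjusted p under 0.05. LHCB1.4 in BdELF3-ox, with a change of 1.32 ± 0.32 and an adjusted p of 1.0, read 6492 to 17200 CPM at 27 °C against 2501 CPM in ELF3-ox. The test of a different 27 °C response in elf3-1 lines called 0% of all loci, with 2 of the 35 at an unadjusted p under 0.05. That for BdELF3-ox and StELF3-ox called 0% as well, with 10 of the 35 at an unadjusted p under 0.05. For polyglutamine length 21 against 0 at 22 °C, with 2 insertion lines of each, edgeR called 0% of 18054 loci, 34 of the 35 were tested, and 8 had an unadjusted p under 0.05. With no filter on low counts edgeR called 5 of the 35 and 1.15% of 24449 loci. LHCB4.2 had the smallest of these, with a change of 0.71 ± 0.16: it read 497 and 509 CPM in the 2 Q21 lines and 274 and 337 CPM in the 2 Q0 lines. None of these tests shows that the levels were alike.

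In the kept peaks, ELF3-MYC sites lay near most antenna genes and near few of the other members. INPUT lists were the only controls. A shared site was a peak of ELF3pro::ELF3-MYC elf3-1 at 17 °C replicate 1, among its 2000 of highest −log10 p, that overlapped such a peak of replicate 2 and none of the INPUT lists. Of 363 shared sites, those within 1000 bp of a gene reached 19 of the 35 loci, against 2.25% of the 19463 loci with a position. They covered 17 of 21 LHCA and LHCB loci, ELIP1 and PSBS. None lay near LHCA5, LHCA6, LHCB4.3, LHCB7, the RBCS loci, RCA or the other LHC-like loci. Abundant genes had sites more often in general. Of 102 loci outside the 35 with a mean of at least 1000 CPM, 11.8% had a shared site, beside 10 of the 12 members at that level. This comparison was added after the counts had been seen.

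The strongest of these sites ranked high. By −log10 p in replicate 1 and replicate 2, the site near LHCA1 (chr3:20340446-20341817) ranked 4 and 9. That near LHCB1.4 and LHCB1.5 (chr2:14523386-14524000) ranked 16 and 25, and that near LHCA4 (chr3:17493545-17495515) 17 and 15. The sites near LHCB6 (chr1:5446884-5448266), LHCB3 (chr5:22037881-22038801) and LHCB1.1 and LHCB1.3 (chr1:10475837-10477218) ranked 22 and 23, 25 and 24, and 30 and 22. Of the 50 highest peaks of replicate 1, 48 were shared sites, and 11 of these lay within 1000 bp of 1 of the 35 loci. Over all 363 shared sites, the best sites of the 35 loci numbered 17. No like count is given for other abundant genes. The fold enrichment at LHCA1, as the authors' peak caller gave it, was 26.8 in replicate 1. These are TAIR10 positions of replicate 1 counted from 1, while gene positions came from a table of a later release with the same numbering of the nuclear chromosomes assumed. Some windows hold other genes too, such as CXIP1 beside LHCA1 and MRE11 beside LHCB3, so a site is near a gene, not assigned to it.

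The genes called in lines with elf3-1 had sites of varied rank, from that of LHCB1.4, above, down. The LHCB2.2 site (chr2:1800057-1801259) ranked 34 and 16, the LHCB2.1 site (chr2:1824113-1824887) 38 and 33, and the LHCB2.3 site (chr3:10255505-10256218) 84 and 47. The LHCB4.2 site (chr3:2717028-2718581) ranked 54 and 46. The PSBS site (chr1:16871478-16872010) ranked 87 and 78, and edgeR called PSBS in the contrast of all 4 mutant lines but in neither comparison of elf3-1. LHCB1.2 and RBCS2B were likewise called in that contrast alone. LHCB1.2 had a shared site (chr1:10473229-10473815). RBCS2B had no shared site, and a kept peak in 3 of the 23 lists other than INPUT. LHCA2, which no genotype comparison called, had a site that ranked 105 and 142. LHCB5 (31 and 36), LHCA3 (35 and 34) and LHCB4.1 (53 and 63) had sites and were called in no genotype comparison either. The same held for LHCA1, LHCA4, LHCB3, LHCB6, LHCB1.1 and LHCB1.3, whose sites were among the strongest, as given above. It also held for ELIP1 and for LHCB1.5, which shares its site with LHCB1.4. Most of the strongest sites thus lay near genes that edgeR called in no genotype comparison.

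Members with a kept peak numbered 19 and 20 of 35 in ELF3-MYC elf3-1 at 17 °C, beside 10.9% and 11.5% of all loci, and 16 at 27 °C in the 1 list used, beside 9.3%. In ELF3-MYC elf3-1 x ELF4-ox they numbered 20 at 17 °C, beside 8.17%, and 19 at 27 °C, beside 10.9%. Over the 23 lists other than INPUT the number ran from 2 in ELF3-ox 27 °C replicate 1, beside 6.35% of all loci, to 24 in BdELF3-ox at 22 °C, beside 15.2%. It was 2 in each INPUT list, beside 9.03% and 9.43%. Peak values were not compared between lists, since the depth of each is not known. Over the 23 lists other than INPUT, LHCB3 had a kept peak in 22, LHCA1 in 21 and LHCB1.4 and LHCB1.5 in 21, while LHCA5, RCA and ELIP2 had one in 0. RBCS1A had one in 12 and SEP1 in 10, and kept INPUT peaks lay near RBCS1A, RBCS2B, RCA and SEP1.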

How the data were processed

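The 35 members and the pathway lists were chosen with earlier results of these data known. The RNA values deposited by the authors are raw read counts per TAIR10 locus; per the labels' protocols the QuantSeq kit read the 3′ ends of transcripts, and per the submitters' processing notes STAR aligned the reads. How strand was used in counting, and with which tool, is not given in the sources. For the ChIP samples the submitters' processing notes name MACS2, Bowtie2, Trimmomatic, Picard and deepTools, and the TAIR10 build. The deposited lists hold a fold enrichment ratio per peak and a −log10 p-value, as the authors' caller wrote them. Peaks were used per sample. The sample whose label says 22 °C kept that label where its file name differs. One ELF3-MYC sample at 27 °C was not used here.

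Tests on counts used edgeR 4.0.16 under R 4.3.3 (TMM, quasi-likelihood test, Benjamini-Hochberg adjusted p under 0.05) and, as an alternative, DESeq2 1.42.0. A locus entered the test when 3 or more libraries had 1 CPM or more of it, with the LHCB1, LHCB2 and RBCS-B copies also summed into 3 values. Terms were line, temperature and title number, leaving 17 residual degrees of freedom and a common dispersion of 0.0551. Printed levels are TMM CPM. The fits were tested on simulated counts with planted changes and the same spread for all loci. Of 4-fold changes, 50 of 50 were called at 27 °C, 48 of 50 at 12 °C and 50 of 50 in elf3-1 against Col-0. Of 2-fold changes, 50, 13 and 15 of 50 were called, and of 1.5-fold changes 88, 1 and 0 of 100. Changes of 2-fold or less could thus often be missed at 12 °C and in elf3-1 against Col-0. Line differences used log2(CPM + 1). Lists were summarised by counts of called genes and medians. The rule for shared sites was taken from an earlier description of these data, and the look at the 50 highest peaks, the genotype contrast and the copy shares were chosen after seeing the data. All members were accounted for; full values were given for members past the threshold, at most 12 per comparison by smallest p, and for copy groups, and the 2 called genes of smallest p per pathway list were named. Promoter and protein sequences were not used here. Files were paired to symbols with 32548 of 32833 loci found by locus tag.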

Additional observations from a re-analysis of the deposited data

How the results depend on the processing

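At 27 °C, 15 of the 35 loci were called with edgeR, 15 with DESeq2-type size factors, 16 with DESeq2, 15 with no filter on low counts, 12 with no title number and 21 without both libraries low in root markers, all lower. The count was 7 in lines with both temperatures under 1 title number and 1 in Col-0 alone, where fewer libraries were fitted and LHCA6 (0.21), LHCB1.4 (0.0065) and RCA (0.21) changed sign on the log2 scale. The sign-flip test, paired by line, called 17 with each pseudocount. At 12 °C the count was 16 without the title number, beside 27.9% of all loci. In elf3-1 against Col-0 it was 5 with DESeq2 and 6 without both libraries low in root markers. In elf4-2 against Col-0 it was 1 with DESeq2 and 2 without those libraries, in elf4-2 X ELF3-ox against ELF3-ox 0 without the title number, and for polyglutamine length 5 with no filter on low counts. The cause of these shifts was not tested.

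Leaving out 1 library at a time gave 12 to 21 calls at 27 °C and 3 to 11 at 12 °C. It gave 0 to 1 in elf3-1 against Col-0, in elf3-1 X ELF4-ox against ELF4-ox and in elf4-2 X ELF3-ox against ELF3-ox, and 4 to 9 in the contrast of elf3-1 or elf4-2 lines. It gave 0 in the other comparisons, for the interactions over the libraries of the lines with the term alone. Where an arm then held 1 library, that library was assumed to vary like the others. Members near a shared site numbered 18 at 200 bp, 19 at 3000 bp and 19 with 500 peaks kept. Members near a kept peak of a single ELF3-MYC 17 °C replicate numbered 19 and 20. The labels give no replicate numbers that tie RNA libraries to each other, so no fit had a replicate block. Libraries were paired by line in the sign-flip test and through the line term. Single libraries in 29 of 33 groups, and reads shared by near-identical copies, limit every value.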
